A study of Mus musculus with 4 samples.

Results

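The interferon-stimulated genes examined here are 40 mouse genes that type I or type II interferon is known to induce. They were chosen by symbol from a list of names, with earlier results of these data known. All 40 were found among the 24873 genes of the table. RNA-Seq had been performed on cerebral endothelial cells (ECs) of mice whose genotype the labels write as Cdh5cre;Mgpflox/flox, with 2 floxed Mgp alleles and the VE-cadherin cre/ERT2 transgene. Mgp encodes matrix Gla protein, an inhibitor of bone morphogenetic proteins. The VE-cadherin promoter drives the tamoxifen-inducible Cre in ECs, and the study examined how loss of Mgp there relates to cerebral arteriovenous malformations. All mice carried the Cre and the floxed alleles. The 2 control libraries came from mice without tamoxifen, and the 2 tamoxifen libraries from mice given 75 mg/kg daily for 5 days at 10 weeks of age. Cells were taken on day 9. The methods describe a sort for CD31+CD45- cells, while the labels call them tdTomato+ brain cells. Each library was pooled from 3 mice, so that no value belongs to a single animal. The study used both male and female mice, and the methods do not give the sex of those in each pool. The table's columns are headed with the letter C or A. The letter C was taken for control from the sample titles, and A as tamoxifen because it was the only other group, and every direction below rests on that reading.

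Interferons are secreted proteins, and cells release type I interferon when they sense viral or other foreign nucleic acid. Type I interferon binds the receptor IFNAR1/IFNAR2, whose kinases TYK2 and JAK1 phosphorylate transcription factors such as STAT2. STAT2 and IRF9 act in the complex ISGF3, which binds the interferon-stimulated response element (ISRE) in promoters. Type II interferon, IFN-gamma, acts through IFNGR1/IFNGR2 and the gamma-activated sequence (GAS). Many induced proteins block viral replication, and several are themselves components of the pathway. Many cells, ECs among them, express a part of these genes without infection, through low tonic interferon signaling.

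ISRE and GAS were searched in the promoters of the 40 genes, since they are what these genes are thought to share at the level of DNA. The letters searched were GAAANNGAA for the ISRE core and TTCNNNGAA for GAS, on both strands, from 250 bases before to 50 bases after the start of the canonical GENCODE M39 transcript on GRCm39. GAS reads the same on both strands, and its last 3 letters can be the first 3 of an ISRE core. An ISRE core was found in 23 of the 40 promoters (57.5%) and in 1269 of the 15570 promoters searched, those of protein-coding genes tested (8.15%). GAS was found in 10 of the 40 (25%) and in 1189 of the 15570 (7.64%). The stretches below are 80 bases of GRCm39 upstream of the start, 5′ to 3′ on the strand of the gene, and they show how differently the matches are arranged. Capitals mark the ISRE core, which appears in these lines as GAAANNGAA or as its reverse complement, and overlapping matches run together. Ifit1 (chr19:34618156-34618235, plus strand) and Ifit3 (chr19:34560764-34560843, plus strand) held 3 matches each, and the stretch of Ifit3b (chr19:34585160-34585239, plus strand) had the same 80 bases as that of Ifit3. Isg15 (chr4:156285304-156285383, minus strand) held 3 overlapping matches, Usp18 (chr6:121222758-121222837, plus strand) 2 separate ones, and Irgm1 (chr11:48762248-48762327, minus strand) 2 overlapping ones. Oas3 (chr5:120915753-120915832, minus strand) and its neighbour Oas2 (chr5:120887945-120888024, minus strand) are shown because these were the members that lay higher in both tamoxifen libraries.
Ifit1: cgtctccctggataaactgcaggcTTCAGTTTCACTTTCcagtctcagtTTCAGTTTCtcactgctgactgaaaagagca
Ifit3: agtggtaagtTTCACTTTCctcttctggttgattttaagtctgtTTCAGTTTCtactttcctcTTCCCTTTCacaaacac
Isg15: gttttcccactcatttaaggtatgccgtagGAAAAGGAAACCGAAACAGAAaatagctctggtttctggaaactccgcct
Usp18: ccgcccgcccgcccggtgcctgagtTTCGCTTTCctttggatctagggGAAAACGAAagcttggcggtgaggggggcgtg
Irgm1: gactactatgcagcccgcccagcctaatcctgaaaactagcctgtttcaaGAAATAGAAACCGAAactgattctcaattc
Oas3: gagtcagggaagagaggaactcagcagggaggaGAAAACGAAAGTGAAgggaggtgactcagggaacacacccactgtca
Oas2: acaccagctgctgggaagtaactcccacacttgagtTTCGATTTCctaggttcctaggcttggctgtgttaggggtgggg

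GAS is shown in capitals for 3 genes known to respond to IFN-gamma. These are Irf1 (chr11:53660715-53660794, plus strand), Gbp5 (chr3:142202414-142202493, plus strand) and Bst2 (chr8:71990209-71990288, minus strand). In Bst2 the last letters of GAS begin an ISRE core, so that the motifs overlap.
Irf1: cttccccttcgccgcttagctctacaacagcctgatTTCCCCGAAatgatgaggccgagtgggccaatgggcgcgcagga
Gbp5: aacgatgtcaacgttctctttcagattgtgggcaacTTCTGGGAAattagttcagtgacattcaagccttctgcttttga
Bst2: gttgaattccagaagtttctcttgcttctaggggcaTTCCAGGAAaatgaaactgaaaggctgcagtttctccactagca

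**Figure D1:**
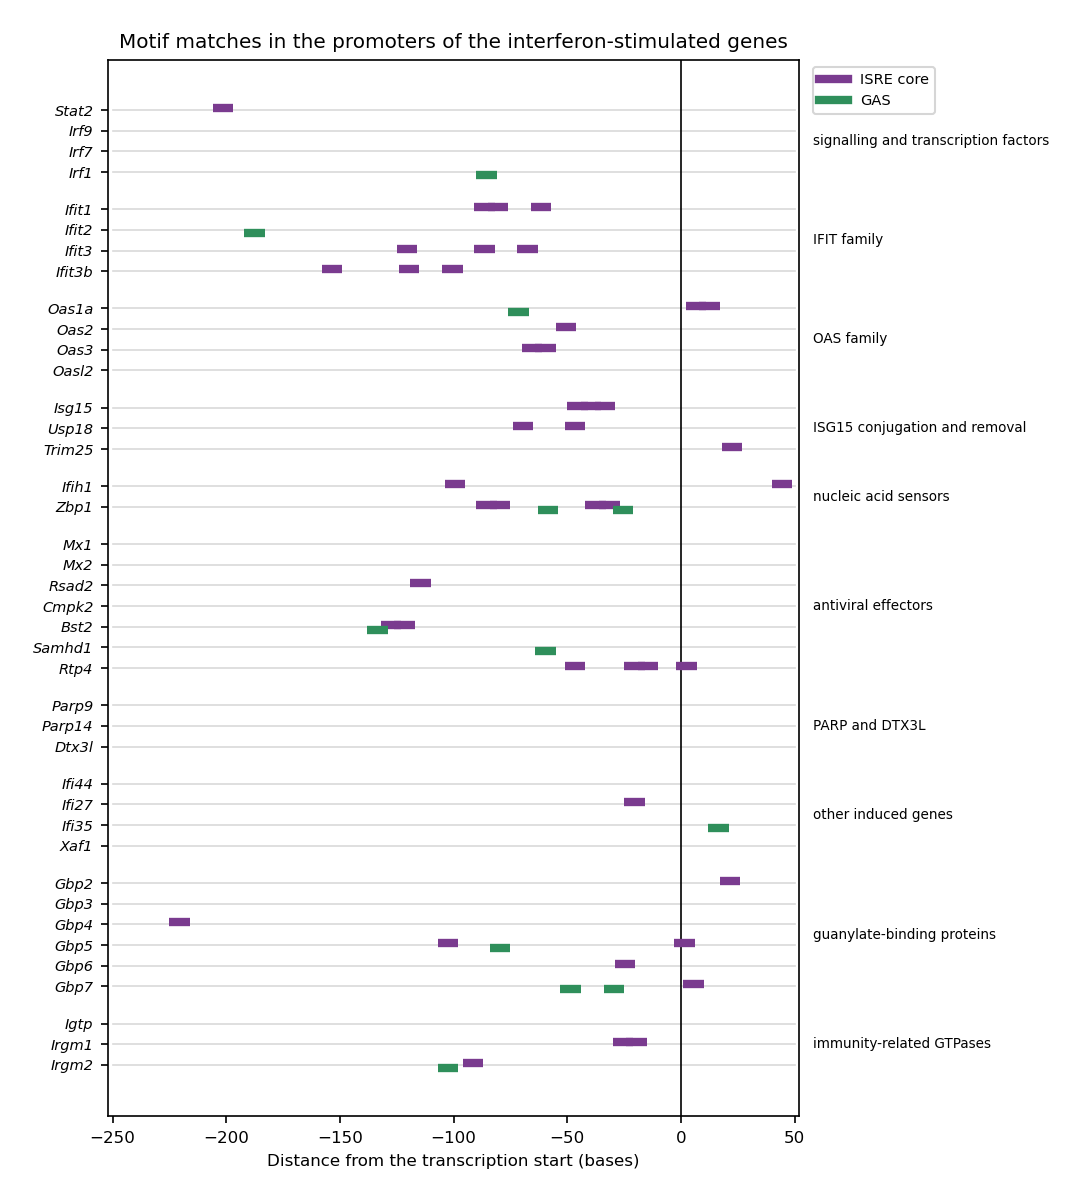
Matches to the ISRE core (purple) and GAS (green) in the promoters of the 40 genes, one line per gene, with the distance from the transcription start in bases on the horizontal axis and the role groups at the right. The matches in Ifit1, Ifit3, Isg15, Usp18 and Oas3 lie upstream of the start, and Irf9, Irf7, Oasl2, Cmpk2, Parp14, Ifi44, Gbp3 and Igtp are among the genes with no match.

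Most of the interferon-stimulated genes were lower in the tamoxifen libraries. All 40 passed the filter of a mean of at least 10 normalized counts, which are read counts divided by a factor per library. By limma with Benjamini-Hochberg adjustment over the 20485 genes tested, 33 fell and 1, Oas3, rose, where a call needed an adjusted p below 0.05 together with a log2 fold change beyond 1 in size. Among all genes tested, 16.0% were called lower and 28.6% were called higher. In 36 of the 40 the tamoxifen libraries were both below the controls (39.2% of all genes tested), in 2 they were both above them (43.1% of all genes tested), and in 2 the groups overlapped. The median log2 fold change was -2.18 over the members and 0.05 over all genes tested. With libraries rescaled to equal totals, Irf1 (-0.93), Ifit2 (-0.80), Mx2 (-0.72), Ifi27 (-0.78) and Xaf1 (-0.65) were no longer called. Summed over the 40 genes, the normalized counts came to 213295 and 188091 in the controls and to 60277 and 39055 after tamoxifen. Tamoxifen library 1 was the higher of its pair for 38 of the 40 genes, with a median ratio of 1.59. Among all genes tested this held for 58.0%, with a median ratio of 1.06. The excess was not particular to the members, since the endothelial markers described below had a median ratio of 1.92 (1.64 to 2.30).

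**Figure D2:**
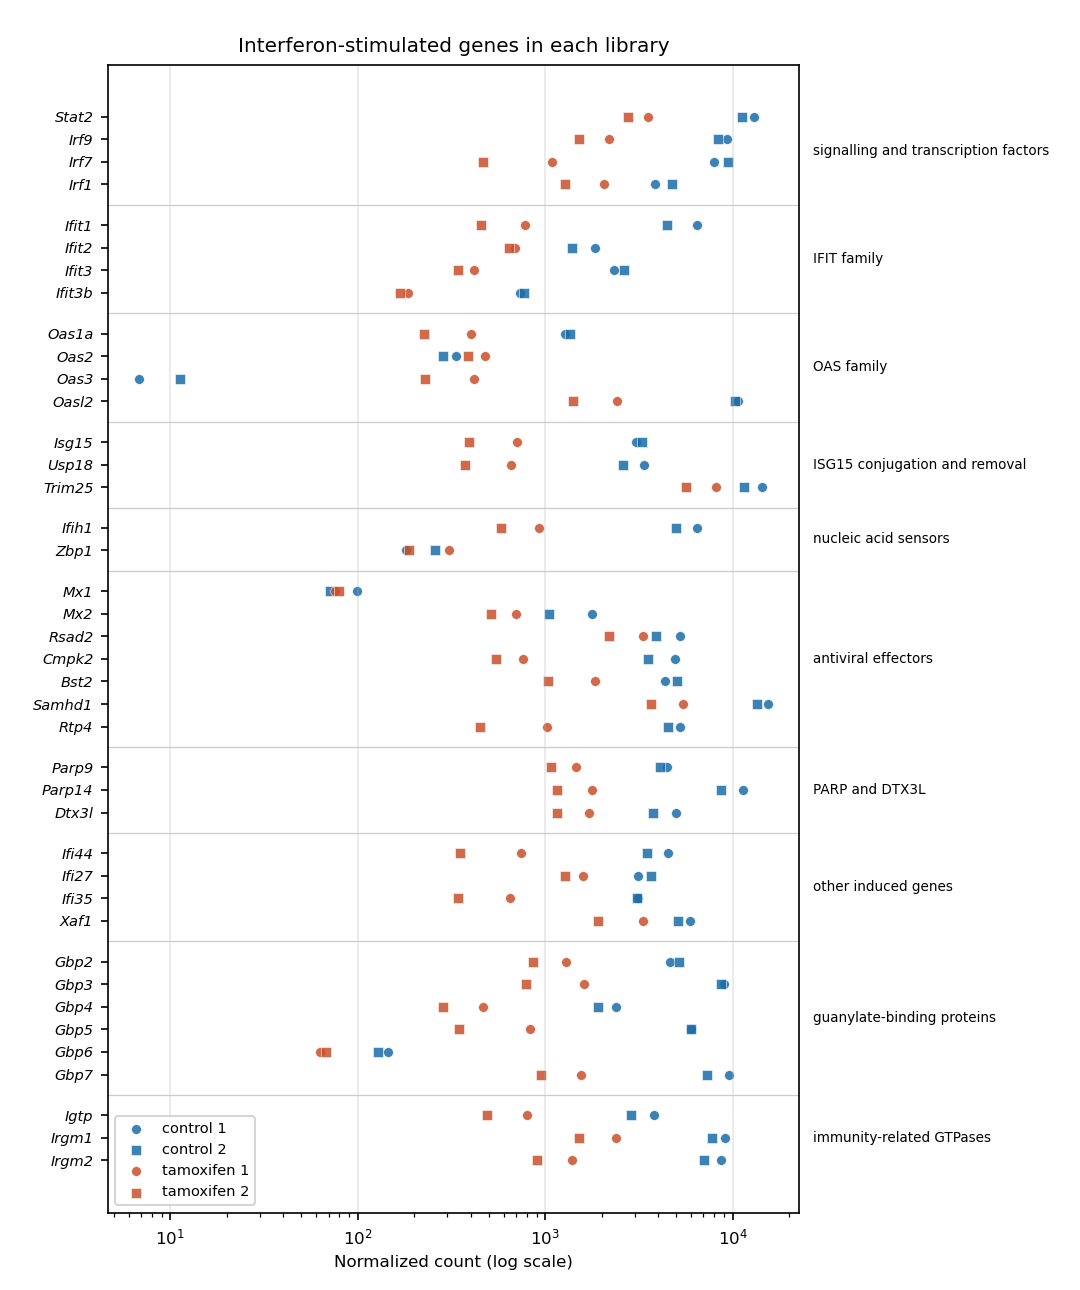
Normalized counts (log axis) of the 40 interferon-stimulated genes in control library 1 (blue circle), control library 2 (blue square), tamoxifen library 1 (red circle) and tamoxifen library 2 (red square), by role. The red symbols lie to the left of the blue ones for 36 genes, to the right for Oas2 and Oas3, and among them for Zbp1 and Mx1.

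The decrease stood beside a loss of endothelial transcripts and a gain of transcripts of other cell types. The marker lists were chosen with earlier results of these data known, so the counts of markers called are descriptions. All 8 endothelial markers, among them Pecam1 and Cdh5, fell, by a median log2 fold change of -2.94, and their sum was 910308 and 881508 in the controls but 152984 and 77773 after tamoxifen. All 8 neutrophil, 4 B cell, 5 pluripotency and 5 cell cycle markers rose, where 28.6% of all genes tested did, and these calls and the endothelial ones held with any library left out. The 4 pan-leukocyte, 5 fibroblast and 5 astrocyte markers rose too, but the calls of Cd53, Lum, Gfap and Gja1 were lost without tamoxifen library 1 and, together with that of Aldoc, without tamoxifen library 2, which left 3 and 2 astrocyte markers called. Of the 8 microglia and macrophage markers 5 rose, but without either tamoxifen library the calls of Tmem119, Aif1, Cd68 and Adgre1 were lost and 1 remained. Of the 5 pericyte markers 2, Abcc9 and Notch3, were called higher, with 0 called without either tamoxifen library. Leaving out control library 1 gave 1 and leaving out control library 2 gave 4. Of the 4 plasmacytoid dendritic cell markers 2 rose, as did both T and NK cell markers tested (Cd3d and Cd3g were below the filter), each list falling to 1 without either tamoxifen library, when Flt3 and Cd3e were not called. The pan-leukocyte sum, which includes Ptprc, the gene of CD45, was between 623 and 810 in the control and between 6502 and 8693 in the tamoxifen libraries. The neutrophil sum was between 247 and 304 in the control and between 83264 and 111655 in the tamoxifen libraries. The astrocyte sum went from 17594 and 15945 to 76364 and 148805, the last being above the endothelial sum of tamoxifen library 2. The cell cycle sum went from 999 and 1174 to 72336 and 70659, and the pluripotency sum from 53.4 and 78.9 to 39180 and 30184. Cox6a2, listed as a plasmacytoid dendritic cell marker, had 0 reads in both control libraries. Siglech and Ccr9 of the same list were not called, with log2 fold changes of 0.81 and -1.02. Cd3e and Cd3d, of T cells, had 0 reads in control library 1. In a bulk library, fewer cells of a type and less RNA per cell cannot be told apart, and the part of these cell types in the interferon results was not tested. Mgp itself had 1094 and 1352 normalized counts in the control and 945 and 909 in the tamoxifen libraries (log2 fold change -0.39 with an SE of 0.18, adjusted p = 0.0986, limma), and was not called. The libraries held between 35387438 and 49799321 reads on genes, at which 3 reads were worth between 2.16 and 4.11 normalized counts. With 2 libraries in each group an exact permutation test of a single gene cannot go below p = 0.333, so all p-values come from the fit across genes.

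Relative to the endothelial markers, which themselves fell, the interferon-stimulated genes had a higher ratio in the tamoxifen libraries. Of all normalized counts in a library, however, the interferon-stimulated genes took a smaller share in both tamoxifen libraries than in either control. The 40 genes together had 23.4 and 21.3 counts per 100 counts of the 8 endothelial markers in the controls, and 39.4 and 50.2 after tamoxifen. Their sum in tamoxifen library 1 was 30.0% of the control mean and in tamoxifen library 2 it was 19.5%, while the endothelial sum was 17.1% and 8.68%. Gene by gene, the ratio to the endothelial sum was above both controls in both tamoxifen libraries for 30 genes, below for 2 genes, Irf7 and Gbp5, and overlapped for 8. Irf7 went from 8.77 and 10.7 per 1000 endothelial counts to 7.13 and 5.98, and Gbp5 from 6.57 and 6.82 to 5.40 and 4.45. On the log2 scale 10 of the 40 genes fell by more than Kdr, the endothelial marker that fell least (-2.75), and Irf7 and Gbp5 also fell by more than Emcn, the marker that fell most (-3.43). Neither the ratios nor the comparison with Kdr and Emcn were counted over all genes tested, whose median log2 fold change was 0.05. Since the endothelial sum fell, a gene that did not change at all also had a higher ratio. A higher ratio is therefore not particular to the interferon-stimulated genes. These ratios are descriptions, and they were not tested.

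**Figure D3:**
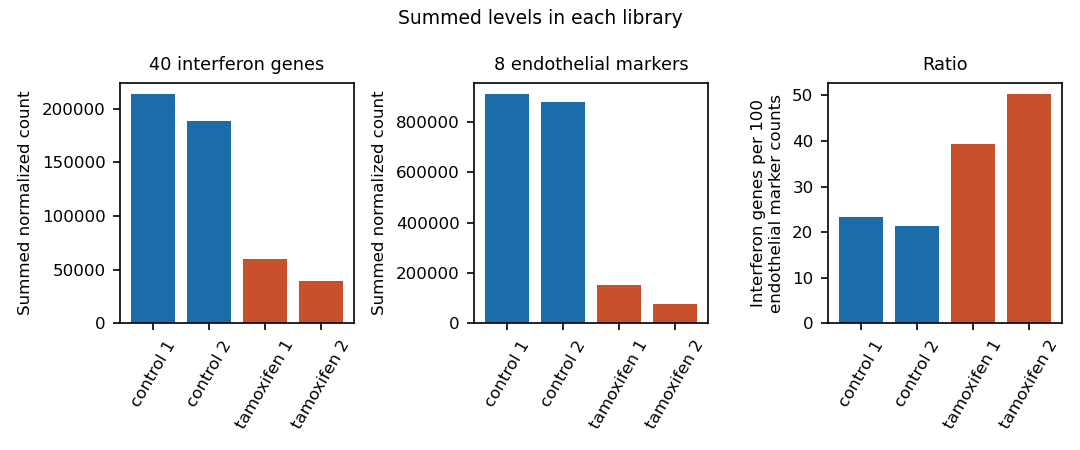
Summed normalized counts of the 40 interferon-stimulated genes (left) and of the 8 endothelial markers (middle), and the interferon counts per 100 endothelial counts (right), with a bar for each control (blue) and tamoxifen (red) library. Both sums are lower in the tamoxifen libraries, and the ratio is 23.4 and 21.3 in the control and 39.4 and 50.2 after tamoxifen.

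All 4 genes of signaling and transcription control fell. Stat2, the ISGF3 subunit that carries its activation domain (chr10:128106352-128128735), had 13049 and 11248 normalized counts in the control and 3541 and 2757 in the tamoxifen libraries (log2 fold change -1.95, SE 0.18, adjusted p = 0.000107). Irf9, the subunit of ISGF3 that recognizes DNA (chr14:55841028-55847812), had 9348 and 8369 against 2204 and 1509 (-2.28, SE 0.21, adjusted p = 9.31e-05). Irf7, the factor that amplifies type I interferon production (chr7:140842619-140846398), had 7987 and 9420 against 1090 and 465. This 11.2-fold difference was the largest fall among the 40 genes (-3.60, SE 0.35, adjusted p = 0.000122). The groups were well apart, although the tamoxifen libraries differed from each other by more for Irf7 than for most members. The log2 fold change of Irf7 was -4.22 without tamoxifen library 1 and -2.99 without tamoxifen library 2. Irf1, a transcription factor gene with the GAS shown above (chr11:53660812-53669200), fell least in the group. It had 3860 and 4752 in the control and 2056 and 1285 in the tamoxifen libraries (-1.40, SE 0.24, adjusted p = 0.00165), and was not called without tamoxifen library 2 (-1.06).

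The 4 genes of the IFIT family, which encode proteins that bind foreign RNA and lie together on chromosome 19 (chr19:34527932-34632174), fell. Ifit1, which recognizes RNA without a complete cap, had 6430 and 4457 normalized counts in the control and 784 and 455 in the tamoxifen libraries, a log2 fold change of -3.16 (SE 0.28, adjusted p = 9.17e-05). Ifit3, a partner of IFIT1, had 2320 and 2646 against 415 and 343 (-2.71, SE 0.19, adjusted p = 3.45e-05). In both genes even the higher tamoxifen library was far below the lower control library. Ifit2 had 1853 and 1398 against 694 and 640 (-1.27, SE 0.20, adjusted p = 0.00102), and its log2 fold change, -1.33 without tamoxifen library 1 and -1.21 without tamoxifen library 2, was then not called. Ifit3b, a near copy of Ifit3, had 734 and 767 against 185 and 168 (-2.08). Stretches of at least 100 bases shared between the copies make up 26.6% of the Ifit3 and 27.2% of the Ifit3b transcript, so the split of reads between them is uncertain.

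The OAS family moved in both directions. These enzymes make 2′-5′-linked oligoadenylate when they bind double-stranded RNA. Oas3, the largest enzyme of the family (chr5:120891163-120915729), had 6.85 and 11.3 normalized counts in the controls, which are 5 and 9 reads. It had 415 and 228 after tamoxifen, which are 383 and 317 reads. The difference was 35.5-fold (log2 fold change 4.98, SE 0.54, adjusted p = 0.000186), Oas3 being the only one of the 40 genes that rose. No other gene of the annotation overlaps Oas3, and no stretch of 100 bases is shared with another gene's transcripts. Oasl2, an OAS-like protein with ubiquitin-like domains (chr5:115034997-115050295), fell. It had the highest counts of the group, with 10747 and 10284 in the control and 2416 and 1408 in the tamoxifen libraries (-2.51, SE 0.25, adjusted p = 0.000126). Oas1a (chr5:121031070-121046449) had 1279 and 1365 against 404 and 226 (-2.12, SE 0.29, adjusted p = 0.000513), but 40.3% of its transcript is shared with Oas1g, so reads of these copies are hard to separate. Oas2 (chr5:120868398-120887933), next to Oas3 on the same strand, had 334 and 287 in the control and 477 and 390 in the tamoxifen libraries. Both tamoxifen values were above both control values, but Oas2 was not called (0.48, SE 0.25, adjusted p = 0.136), and its log2 fold change was -0.42 under quantile normalization and 0.95 with libraries rescaled to equal totals.

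Of the 3 genes of ISG15 conjugation and removal, 2 fell. Isg15, the ubiquitin-like modifier (chr4:156283883-156285303), had 3048 and 3290 normalized counts in the control and 706 and 392 in the tamoxifen libraries (log2 fold change -2.59, SE 0.27, adjusted p = 0.000157). Usp18, which removes ISG15 from proteins and restrains IFNAR2 (chr6:121222848-121247877), had 3371 and 2613 against 659 and 372 (-2.58, SE 0.28, adjusted p = 0.000187). The modifier and its protease had nearly the same fold difference. Trim25, a ligase for ISG15 and ubiquitin (chr11:88890202-88911122), had 14360 and 11475 against 8173 and 5658. The groups did not overlap, but its log2 fold change of -0.92 (SE 0.22, adjusted p = 0.00936) was under the limit of 1. It was called when control library 2 was left out (-1.08).

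The pair of nucleic acid sensors differed from each other. Ifih1, which encodes MDA5, a cytoplasmic receptor for long double-stranded RNA (chr2:62425714-62476607), had 6430 and 5001 normalized counts in the control and 923 and 580 in the tamoxifen libraries (log2 fold change -2.95, SE 0.24, adjusted p = 6.65e-05). Zbp1, a sensor of left-handed nucleic acid that can start necroptosis (chr2:173033815-173060724), had 182 and 258 against 307 and 188. The libraries of Zbp1 overlapped between groups, and it was not called (0.15, SE 0.36, adjusted p = 0.742, -0.95 under quantile normalization and 0.61 with libraries rescaled to equal totals). Its promoter held 4 matches to the ISRE core, as many as that of Rtp4 and more than those of the other 38 genes.

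Of the 7 antiviral effectors, 5 fell. Samhd1, which hydrolyzes the deoxynucleotides that retroviruses need (chr2:156939453-156977187), had the highest counts of the group, with 15420 and 13521 normalized counts in the control and 5432 and 3683 in the tamoxifen libraries (log2 fold change -1.69, SE 0.22, adjusted p = 0.000398). Bst2, or tetherin, which holds budding virions on the membrane (chr8:71986895-71990114), had 4348 and 5029 against 1851 and 1042 (-1.75, SE 0.26, adjusted p = 0.000862). Rtp4, a transporter protein of the receptor-transporting family (chr16:23337811-23432972), had 5234 and 4541 against 1018 and 450 and fell most in the group. Its log2 fold change was -2.85 (SE 0.34, adjusted p = 0.000285), with -3.43 without tamoxifen library 1 and -2.26 without tamoxifen library 2. Rsad2 and Cmpk2 are neighbours on chromosome 12 that are transcribed in opposite directions and act on the same nucleotide, viperin making a chain-terminating form of CTP and CMPK2 phosphorylating its precursors. Rsad2 (chr12:26492745-26506451) had 5253 and 3889 in the control and 3314 and 2186 in the tamoxifen libraries and was not called, since its log2 fold change was -0.75 (SE 0.24, adjusted p = 0.0278). Cmpk2 (chr12:26519203-26529836) had 4958 and 3550 against 764 and 550 (-2.69, SE 0.23, adjusted p = 7.45e-05). The groups did not overlap for either neighbour, and the fold was larger for Cmpk2.

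Mx2 and Mx1 lie side by side on chromosome 16 (chr16:97248235-97362100). They belong to a family of dynamin-like GTPases that can block the replication of several viruses. Whether these mice make working proteins from them was not tested. Mx2 had 1778 and 1050 normalized counts in the control and 696 and 518 in the tamoxifen libraries (log2 fold change -1.19, SE 0.28, adjusted p = 0.00799). Mx2 was not called without control library 1 (-0.81) or without tamoxifen library 2 (-0.97), where its log2 fold change was under the limit of 1. It was also not called without tamoxifen library 1, where the log2 fold change was larger in size (-1.40) but only 1 tamoxifen library was left. Mx1 had 98.6 and 71.3 against 75.9 and 79.1, with overlapping groups. It was not called (-0.11, SE 0.43, adjusted p = 0.834), and its log2 fold change was 0.35 with libraries rescaled to equal totals and -1.26, then called, under quantile normalization.

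Parp9, Parp14 and Dtx3l, which lie near each other on chromosome 16 (chr16:35653231-35792980) and encode ADP-ribosyltransferases and the ubiquitin ligase partner of PARP9, fell. Parp14 had 11314 and 8701 normalized counts in the control and 1773 and 1163 in the tamoxifen libraries (log2 fold change -2.79, SE 0.23, adjusted p = 6.91e-05). Dtx3l had 4986 and 3774 against 1724 and 1153 (-1.62, SE 0.23, adjusted p = 0.000677) and was not called without tamoxifen library 2 (-1.33). Parp9 had 4450 and 4089 against 1469 and 1072 (-1.76, SE 0.19, adjusted p = 0.000177). Parp9 and Dtx3l, whose products work as a complex, overlap at their starts on opposite strands, and the strand setting of the counting is not given in the sources used here.

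The 4 other induced genes, Ifi44, Ifi27, Ifi35 and Xaf1, fell. Ifi44 (chr3:151436559-151455625) had 4535 and 3511 normalized counts in the control and 740 and 353 in the tamoxifen libraries (log2 fold change -2.96, SE 0.33, adjusted p = 0.000202). Ifi35, a leucine zipper protein (chr11:101339221-101352693), had 3148 and 3083 against 650 and 343 (-2.72, SE 0.28, adjusted p = 0.000161). These genes were far below their control levels in both tamoxifen libraries. Xaf1, which binds the apoptosis inhibitor XIAP (chr11:72192397-72204559), had 5923 and 5132 against 3342 and 1914 (-1.12, SE 0.26, adjusted p = 0.0068). Ifi27, a small membrane protein of mitochondria and nuclear envelope (chr12:103392254-103407799), had 3137 and 3662 against 1598 and 1270 (-1.25, SE 0.18, adjusted p = 0.000671). Neither was called without tamoxifen library 2, at -0.72 for Xaf1 and -1.08 for Ifi27. Xaf1 was also not called under quantile normalization (-0.89).

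The guanylate-binding proteins, GTPases that assemble on vacuoles of intracellular pathogens and that IFN-gamma induces strongly, fell in 5 of 6 cases. Gbp2, Gbp3, Gbp5 and Gbp7 lie in a cluster on chromosome 3 (chr3:142199739-142343779), and Gbp4 and Gbp6 in another on chromosome 5 (chr5:105263633-105443751). Gbp3 had 9037 and 8660 normalized counts in the control and 1603 and 792 in the tamoxifen libraries (log2 fold change -2.97, SE 0.30, adjusted p = 0.000134). Gbp7 had 9544 and 7276 against 1553 and 955 (-2.77, SE 0.25, adjusted p = 9.39e-05), with 10.1% of its transcript shared with a pseudogene or Gbp3. Gbp5, which takes part in inflammasome assembly, was nearly equal in the control libraries, at 5978 and 6015, and had 826 and 346 in the tamoxifen libraries. This 10.2-fold difference was the next largest fall after Irf7 (-3.49, SE 0.35, adjusted p = 0.000142), and the log2 fold change was -4.11 without tamoxifen library 1 and -2.86 without tamoxifen library 2. Gbp2 and Gbp4 had log2 fold changes of -2.22 and -2.55. Gbp6, with the lowest counts of the group, had 145 and 128 against 62.9 and 67.6 and was not called (-1.05, SE 0.40, adjusted p = 0.0512), although the groups did not overlap. It was called in 4 of the 13 other settings tried, with log2 fold changes from -2.17 to -1.01 in those 4. As 82.2% of its transcript is shared with Gbp10 and a neighbouring gene model, its counts are uncertain.

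The 3 immunity-related GTPases on chromosome 11, which direct and restrain the attack on pathogen vacuoles, fell. Irgm1 (chr11:48752795-48763164) had 9129 and 7739 normalized counts in the control and 2389 and 1513 in the tamoxifen libraries (log2 fold change -2.14, SE 0.23, adjusted p = 0.00018). Irgm2 (chr11:58090444-58113615) had 8690 and 7036 against 1385 and 907 (-2.80, SE 0.23, adjusted p = 6.13e-05). Igtp (chr11:58089840-58098417) had 3806 and 2889 against 804 and 492 (-2.40, SE 0.26, adjusted p = 0.000183). In all 3 genes both tamoxifen libraries were well below both controls. Igtp and Irgm2 overlap on the same strand and share 7.05% of the Igtp transcript, so their reads are not fully separable.

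**Figure D4:**
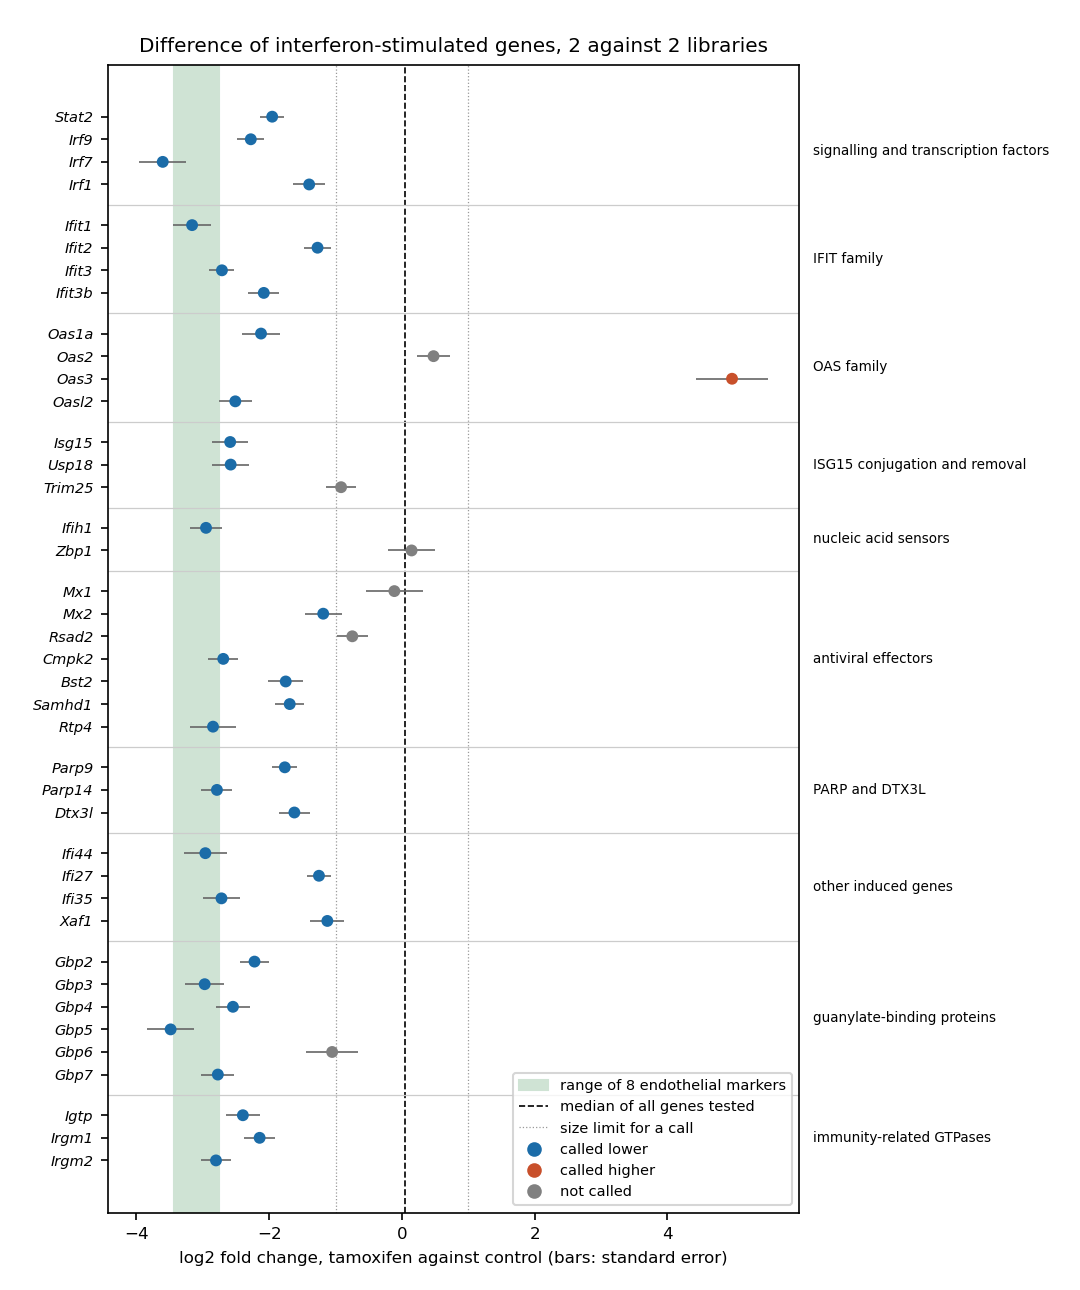
Log2 fold change of tamoxifen against control for the 40 interferon-stimulated genes, by role, with bars for the standard error (2 libraries in each group). Of the points, 33 are called lower (blue), Oas3 is called higher (red) at 4.98 and 6 are not called (grey). They are drawn beside the range of the 8 endothelial markers (green band, -3.43 to -2.75) and the median of all genes tested (dashed line, 0.05).

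Divided by the length of their annotated exons, the levels of the 40 genes had a different order in each group. In the control libraries Isg15 was highest with a mean of 4052 normalized counts per kilobase, followed by Bst2 with 3862, Irf7 with 2302 and Trim25 with 2244. The lowest were Gbp6 with 20.1 per kilobase and Oas3 with 1.28. In the tamoxifen libraries Trim25 with 1201 per kilobase and Bst2 with 1191 led, ahead of Isg15 with 702. Irf7 went from the 3rd place to the 19th, and Oas3 from the 40th to the 36th. Isg15 and Bst2 in the controls, and Trim25 and Bst2 in the tamoxifen libraries, lay closer together than their libraries differed.

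Genes fell both with and without a motif in the window. Of the 23 genes with an ISRE core 17 fell and 1, Oas3, rose, with a median log2 fold change of -2.14. Of the 17 genes without one 16 fell, with a median of -2.28. Among the 10 genes with GAS 9 fell (median -1.94), and among the 30 without GAS 24 fell (median -2.25). Irf7, Irf9, Oasl2, Gbp3 and Parp14, which had no match in the window, were all among those that fell. No match says only that these letters are absent from the window searched.

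Other genes of the interferon pathway were read from the same fit. Of 92 genes listed by role, 71 were in the table and 70 were tested, of which 37 fell and 14 rose, with a median log2 fold change of -1.07. These are 52.9% and 20% of the genes tested, against 16.0% and 28.6% over all genes. This list, too, was chosen with earlier results of these data known. Without tamoxifen library 1, and likewise without tamoxifen library 2, 3 pathway genes were called higher. Of 21 interferon genes only Ifne was in the table, with 0 reads in every library, and the others, including Ifnb1 and Ifng, were not analysed here. A count of 0 does not exclude a low level, with an expected count of up to about 3 reads.

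The receptors of both interferon types were among the genes that fell. Ifnar1 had 37184 and 33441 normalized counts in the control and 8694 and 5959 in the tamoxifen libraries (log2 fold change -2.29, SE 0.23, adjusted p = 0.000134), and Ifnar2 differed by -2.48. For IFN-gamma, Ifngr1 differed by -1.04 and was called, a call that was lost without tamoxifen library 2 (-0.96), while Ifngr2, at -0.71, was not called. Ifnlr1, the receptor subunit for type III interferon, rose by 3.20 from 23.3 and 17.5 to 218 and 172, but this was called neither without tamoxifen library 1 (3.03) nor without tamoxifen library 2 (3.37). Its partner Il10rb fell, by a log2 fold change of -2.94. Of the kinases, Jak1 had 7653 and 7741 in the control and 7721 and 7461 in the tamoxifen libraries (-0.02, SE 0.15, adjusted p = 0.919), and 0.45 with libraries rescaled to equal totals. Jak2 fell (-1.49), as did Tyk2 (-1.04), which was not called without control library 2 (-0.99) or without tamoxifen library 2 (-0.85). With libraries rescaled to equal totals, Ifngr1 and Tyk2 (both -0.57) were not called.

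Some genes of the pathway rose. Irf4 and Irf8, factors best known from lymphoid and myeloid cells, rose by 3.78 and 2.61. Irf4 had 23.3 and 25.0 against 399 and 296, and Irf8 had 98.6 and 106 against 696 and 572. Irf4 and Irf8 were called higher with any library left out. Ifitm1, which restricts viral entry, differed by 2.74, and Socs3, an inhibitor of cytokine receptors, by 1.34, both called with all libraries but not without tamoxifen library 1 (2.55 and 1.21) or without tamoxifen library 2 (2.92 and 1.46). Irf2 and Irf3, by contrast, fell (-1.67 and -1.39, the latter not called at -0.92 with libraries rescaled to equal totals), as did the sensors Rigi (-1.70) and Dhx58 (-1.55), which belong to the family of Ifih1. Of the 39 other induced genes tested 25 fell and 8 rose. Helz2, a helicase with the highest counts among them, had 24978 and 19986 against 4221 and 2196 (-2.87, SE 0.30, adjusted p = 0.000156), and Sp100, a nuclear body protein, had 16509 and 14587 against 2420 and 1181 (-3.20, SE 0.31, adjusted p = 0.000115).

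**Figure D5:**
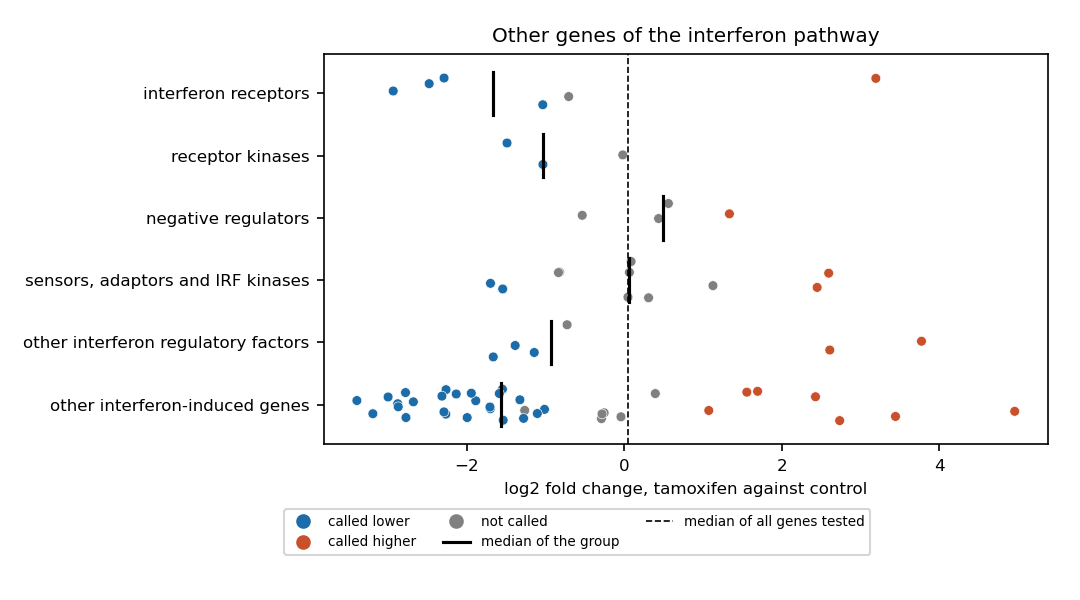
Log2 fold change of tamoxifen against control for other genes of the interferon pathway by role, with called lower (blue), called higher (red) and not called (grey) genes, the median of each role (black bar) and the median of all genes tested (dashed line, 0.05). Among the receptors Ifnlr1 is called higher at 3.20, and Ifnar1 and Ifnar2 are called lower at -2.29 and -2.48.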

How the data were processed

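The authors sequenced stranded mRNA libraries (KAPA kit), aligned reads with STAR 2.7.10a to GRCm39, counted them in the same step and scaled the counts with DESeq2 1.36.0. Their methods state that genes with few counts were removed, but 42 of the 24873 genes in the table had 0 reads in all 4 libraries. The annotation release, the strand setting and the low-count limit are not given in the sources used here. Each deposited value is a signal, the gene's read count over a scaling factor that the authors set for the library. Since all values were whole multiples of their column's smallest step (100% within 0.01 read), the reads could be recovered.

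Differences were fitted with limma 3.58.1 in R 4.3.3 (lmFit, eBayes with a trend) on log2(normalized count + 1) for 20485 genes whose mean was 10 or more, which understates the change of low genes, and adjusted by Benjamini-Hochberg over all of them. Calls needed an adjusted p below 0.05 together with a log2 fold change beyond 1 in size. The SE is the moderated standard error of the log2 fold change. The fit was tested on simulated data with known fold changes, in which few genes changed, as many up as down. It was not tested on data in which as many genes differ as here. Alternatives were edgeR 4.0.16 and DESeq2 1.42.0 on the recovered reads, other pseudocounts, filters and scalings, a replicate block and leaving out each library. The libraries, each from separate pooled mice, share replicate numbers, but the deviations of same-numbered libraries correlated by 0.03, so the numbers were not taken as pairs.

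Gene locations, overlaps, exon lengths, promoters and stretches of 100 bases shared with other transcripts came from GENCODE M39 on GRCm39 (Python 3.11.15), in which 24451 of the 24873 symbols were found. The members, role groups, pathway and marker lists were chosen with earlier results of these data known. Every member is named, and values per library are given in each role group at least for the 3 with the highest mean and for the largest rise and fall. Pathway genes named were called with a mean of at least 100 or belong to a fixed set of receptors, kinases, Ifnb1 and Ifng. Some pathway genes are counted but not reported here.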

Additional observations from a re-analysis of the deposited data

How the results depend on the processing

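Over 13 other settings, and with the adjusted p alone, between 27 and 35 of the 40 interferon-stimulated genes were called lower, and 28 of the 34 called genes, Oas3 among them, were called in the same direction in all 13. The calls of Irf1, Ifit2, Mx2, Dtx3l, Ifi27 and Xaf1 were lost in at least 1 setting. With libraries rescaled to equal totals the median log2 fold change of the members was -1.71, where the median of all genes moved from 0.05 to 0.52, and under quantile normalization that of all genes was -0.20. Relative to all genes the median of the members was -2.23 in both the reported fit and the rescaled one. Rescaling shifts all genes of a library nearly alike, so this value could hardly move. It was -2.04 under quantile normalization, -2.59 without tamoxifen library 1 and -2.02 without tamoxifen library 2. Leaving out each library gave between 27 and 34 members lower, a median between -2.53 and -1.96, and between 26 and 37 pathway genes lower. Pathway genes called higher ranged from 3 to 14, with 3 whenever a tamoxifen library was left out, where the remaining tamoxifen library was assumed to vary like the controls. With the replicate block 33 members were lower and 1 higher, as without it. DESeq2 on recovered reads called 34 lower and 1 higher, and edgeR 33 and 1. All p-values rest on 2 libraries a group.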
